A study of Mus musculus with 9 samples.

Results

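F9 cells are a mouse embryonal carcinoma line, malignant counterparts of early embryo cells that differentiate toward endoderm when given retinoic acid (RA). The transcript changes that followed 24 h of RA were measured on 6 of the 9 oligonucleotide arrays of the series. These were the 3 arrays of cells given 0.5 µM RA and the 3 of cells given only the ethanol vehicle in DMEM. The remaining 3 arrays were of cells given 0.07 µM trichostatin A (TSA), an inhibitor of histone deacetylases, also for 24 h. They entered the fit and are used here where RA is set against TSA. All arrays were chosen by their titles. Every probe set except the 66 controls was used, 12422 of 12488, and these gave 8251 genes with a symbol of their own. No group carries a mutation or transgene, all cells are of a single line, and only 1 dose and time of RA was measured. Nothing in the labels tells whether replicates came from different cultures. The p-values therefore reflect the scatter of these samples alone, and that scatter may be technical.

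RA enters the nucleus and binds the RA receptors (RARs), which sit on DNA as pairs with retinoid X receptors. The sites of these pairs are direct repeats of a short hexamer, and bound ligand exchanges corepressors for coactivators. In embryonal carcinoma cells the first wave of induced genes includes enzymes that destroy RA, carriers that bind it and Hox genes that pattern the body axis. In F9 cells the later course is loss of stem cell factors, slower growth and a shift toward primitive endoderm, the layer that makes the basement membrane proteins of the yolk sac. The comparison shows which genes outside the classical targets passed the test after a day, and which stem cell, endoderm and growth genes did not pass it.

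Each value was a ratio to the mean of the 3 vehicle arrays for that probe set, so 1 is the vehicle level and a ratio says nothing of how abundant a transcript is. Changes are differences of log2(ratio + 0.05) between group means. A gene was called when its limma p, adjusted by Benjamini-Hochberg over all genes, was under 0.05. By this rule 169 of 12422 probe sets (1.36%) were called, 116 higher and 53 lower. Among genes 150 of 8251 (1.82%) were called, 98 higher (1.19%) and 52 lower (0.63%). Centring the arrays gave 138 higher and 35 lower, quantile normalisation 64 and 12, and leaving out the lowest 30% by mean 118 and 6. The last of these takes out genes that fell, by its construction. The rises were also the larger changes on this scale, with a median log2 change of 1.88 against -1.42 for the falls. The added 0.05 bounds how far a gene can fall but not how far it can rise. Of the rises 43 exceeded a log2 change of 2 and 24 exceeded 3, while 8 falls went below -2. In all 150 the 3 RA arrays did not overlap the 3 vehicle arrays, as was true of 17.9% of all genes tested. Of the 150, 19 belonged to the lists of retinoid genes and Hox genes, and 131 did not, 79 of them higher and 52 lower. The volcano plot of all genes shows the longer arm of rises.

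**Figure D1:**
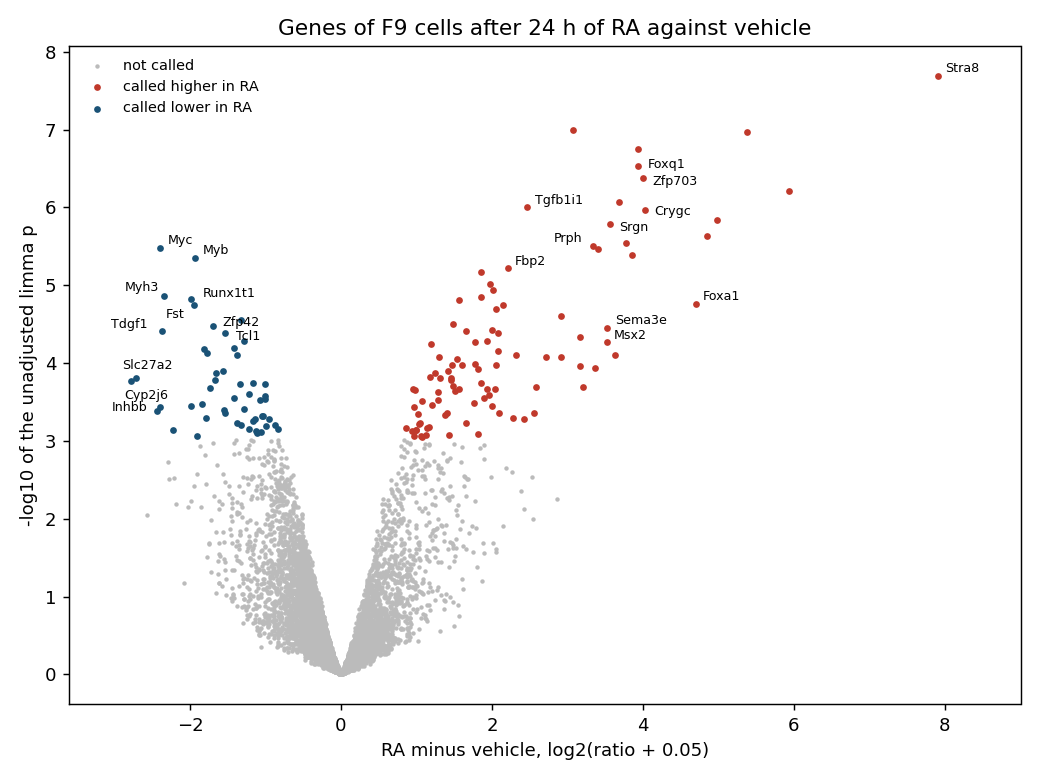
Each point is 1 of the 8251 genes, with the RA minus vehicle difference in log2(ratio + 0.05) on the x axis and the negative log10 of the unadjusted limma p on the y axis. The 98 genes called higher reach a log2 change of 7.91 (Stra8), whereas the 52 called lower end at -2.78 (Cyp2j6).

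The arrays were not equally clean. Control probe sets for 18S ribosomal RNA had a median of 2.4 on vehicle replicate 3 and 0.961 on RA replicate 3, the highest of the 9 arrays. Vehicle replicate 1 was at 0.538 and the others were at 0.073 or less. The median gene had a standard deviation of 0.378 on the log2 scale among vehicle arrays and 0.286 among RA arrays. The median gene was also lower in RA than in vehicle by a log2 change of -0.12, a shift that centring on array medians turned to 0.04. Without the 2 arrays of highest 18S signal, 66 genes were higher and 45 lower, and 71 of the 150 calls were lost. Leaving out single arrays cost from 20 calls (vehicle replicate 3) to 99 (RA replicate 2), and 45 of the 150 calls held whichever array was left out. Below, a call that "held throughout" is 1 of these 45. For the other genes described by value, the arrays whose absence ended the call, or the only absences it survived, are given with the highest adjusted p. RA replicate 1 was the highest RA array in 51 of the 98 rises, against 25 for replicate 2 and 22 for replicate 3; over all genes the numbers were 3095, 2016 and 3140. Whether array quality had a part in the changes was not tested.

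The classical targets checked the treatment. Stra8, an RA-induced gene that germ cells need for meiosis, stood at 234, 207 and 232 on the RA arrays, against 0.394, 1.44 and 1.16 on the vehicle arrays (log2 change 7.91, adjusted p = 0.000168). Cyp26a1, the P450 enzyme that destroys RA, stood at 78.8, 53.9 and 51.8, against 0.949, 0.570 and 1.48 in vehicle (5.94, adjusted p = 0.00073). Crabp2, which carries RA to its receptors, averaged 44.8 ± 14.8 in RA (SD, n = 3), and Hoxb4 averaged 32.5 ± 3.17. None of these RA arrays came near a vehicle array, and all 4 calls held throughout. Of 28 measured genes of retinoid metabolism and response 8 rose and none fell, and of 31 Hox genes 11 rose and none fell. The median log2 change was 0.39 and 0.80 in these lists, against -0.12 over all genes, of which 1.19% rose and 0.63% fell. Without the 2 arrays of highest 18S signal 5 retinoid genes and 6 Hox genes were called higher.

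The promoter of Cyp26a1 is shown because its receptor site is the textbook example of a direct repeat. Promoter windows came from RefSeq (GRCm38.p6), 250 bases before to 50 after the gene start, for 6576 of the genes. They were searched on both strands for 2 copies of the hexamer AGGTCA, of its variant AGTTCA or of its variant GGTTCA, in any combination, in the same orientation and spaced by 1, 2 or 5 bases. Such a pair stood in 4 of 6576 windows (0.0608%), in 1 of 66 windows of called rises (1.52%) and in 0 of 40 of called falls. That 1 window was Cyp26a1, with a spacing of 5 and the repeat on the strand opposite to the gene, at positions -32 to -16 from the start. A match is a description of the letters and not a shown site, and no match says nothing of sites outside the window. The stretch chr19:37697716-37697807 on the plus strand reads as follows, with both hexamers and the bases between them in capitals.
Cyp26a1: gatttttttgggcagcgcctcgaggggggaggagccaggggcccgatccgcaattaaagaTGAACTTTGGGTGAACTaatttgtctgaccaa

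Transcription factors outside the Hox clusters were among the largest rises. Of 124 measured homeobox, forkhead, Sox, T-box and Gata genes 11 rose and 2 fell, with a median log2 change of 0.04. All genes had a median of -0.12, with 1.19% higher and 0.63% lower. Of the 11, Cdx1, Meis1 and Meis2 also belong to the retinoid list. Without the 2 arrays of highest 18S signal 9 and 1 passed. Foxa1, a pioneer factor that opens chromatin in endoderm, stood at 22, 24.4 and 23.5 in RA against 1.21, 1.46 and 0.334 in vehicle. Its RA arrays lay close together and far above the spread of the vehicle arrays (log2 change 4.70, SE 0.56, adjusted p = 0.00496). Foxq1, another forkhead factor, stood at 11.1, 20.1 and 17.9 against 0.782, 1.21 and 1.01 (3.94, adjusted p = 0.000483). Msx2, a homeobox repressor that answers to BMP signals, stood at 10.2, 8.81 and 10.3 against 0.373, 0.698 and 1.93 (3.52, adjusted p = 0.00968). Its vehicle arrays differed widely among themselves, yet the highest was well below the lowest RA array. The calls of Foxa1, Foxq1 and Msx2 held throughout.

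The caudal homeobox gene Cdx1, also in the retinoid list, stood at 12.2, 13.6 and 15.6 against 0.655, 1.69 and 0.658, and its call held throughout (3.85, adjusted p = 0.00188). Irx3, an Iroquois homeobox gene, reached 5.89, 4.70 and 2.90 with vehicle arrays from 0.768 to 1.13 (2.08, adjusted p = 0.0114). Its call ended only without RA replicate 2 (adjusted p = 0.0582). Prrx2, a paired-related homeobox gene, was at 2.16, 2.35 and 2.55 (1.19, adjusted p = 0.00994), and its call ended without vehicle replicate 2 or RA replicate 2 (up to 0.0598). The T-box repressor Tbx3, whose values like those of En2 were looked at after the results were known, was at 3.06, 3.15 and 2.49 (1.49, adjusted p = 0.02). The Tbx3 call ended without vehicle replicate 1 or 2 or RA replicate 1 or 2 (up to 0.0907). The falls in this list were Foxd3, described with the stem cell genes, and the homeobox gene En2. En2 stood at 0.267, 0.274 and 0.264 in RA against 1.23, 1.16 and 0.607 (-1.66, adjusted p = 0.0162), and its call ended without vehicle replicate 2 or any RA replicate (up to 0.0797).

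Zfp703 was even across the RA arrays. Zfp703, a transcriptional cofactor of epithelial cells, stood at 17.3, 16.7 and 15.9 in RA against 0.887, 0.915 and 1.20 in vehicle (log2 change 4.0, SE 0.30, adjusted p = 0.000567), and its call held throughout. Of 89 genes with a Zfp symbol 2 rose, Zfp703 and Zfp362 (1.02, adjusted p = 0.0326), and 1 fell, Zfp42. The Zfp362 call held only without vehicle replicate 3 or TSA replicate 2 (up to 0.13). Of 44 nuclear receptors and coregulators 1 rose (Nrip1) and 1 fell (Nr5a2), with a median of -0.13. None of the 44 was called without the 2 arrays of highest 18S signal. All genes had a median of -0.12, with 1.19% higher and 0.63% lower. Nrip1, a corepressor that binds RARs and other receptors, stood at 5.40, 3.10 and 2.80 against 0.894 to 1.19 (1.81, adjusted p = 0.0151), and its call ended without vehicle replicate 2 or RA replicate 2 (up to 0.0757). Runx1t1, a corepressor known from its fusion with a Runx factor in leukaemia, fell from 1.01, 1.01 and 0.984 to 0.153, 0.196 and 0.326. Its vehicle arrays agreed within a few percent, and its call held throughout (-1.98, adjusted p = 0.00472). Ctbp2, a corepressor that binds many zinc-finger and homeobox factors, changed by -1.66 on 1 probe set (adjusted p = 0.00746) and by -1.68 on the other (adjusted p = 0.0738), with a gene-level adjusted p of 0.0184. The Ctbp2 call ended without vehicle replicate 1 or 2 or RA replicate 1 or 2 (up to 0.0817).

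**Figure D2:**
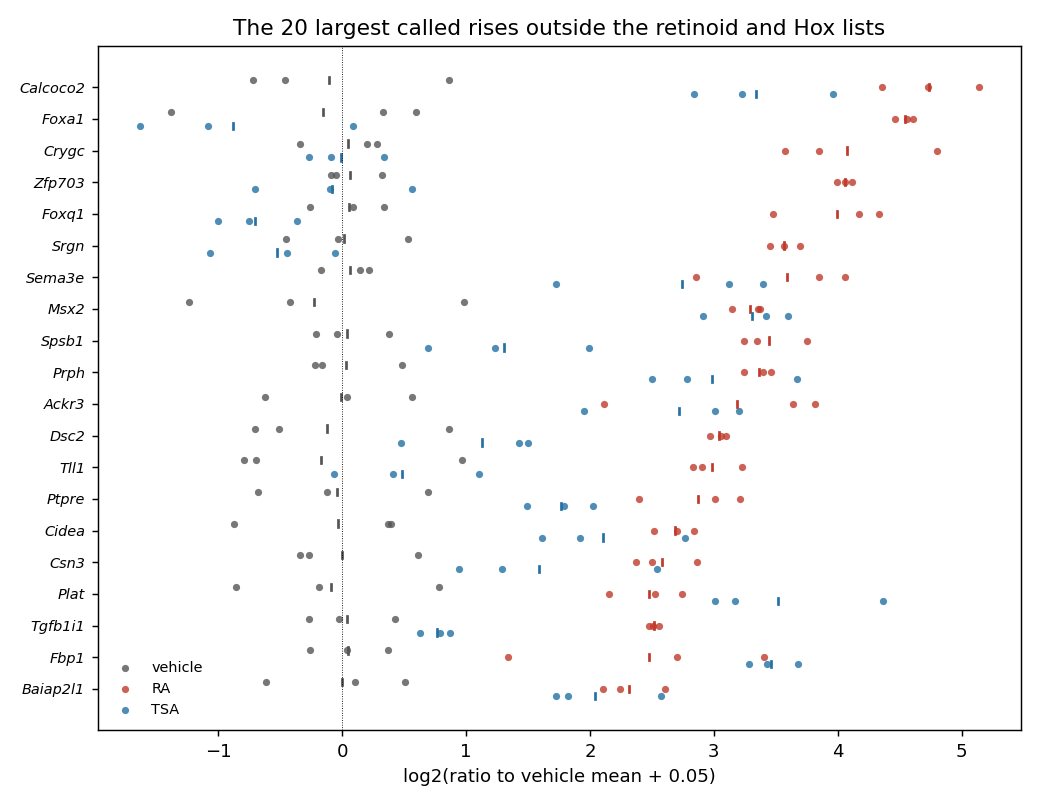
Points give log2(ratio + 0.05) on each of the 3 vehicle, 3 RA and 3 TSA arrays for the 20 largest called rises outside the retinoid and Hox lists, averaged over a gene's probe sets, and bars give group means. In every row the RA arrays lie right of the vehicle arrays, whereas the TSA arrays lie near vehicle for Crygc and Zfp703 and near RA for Msx2 and Baiap2l1.

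Genes of the undifferentiated state fell more often than they rose. Of 35 measured 7 fell (Myc, Zfp42, Tdgf1, Tcl1, Utf1, Foxd3 and Nr5a2) and 3 rose (Alpl, Lefty1 and Tbx3). The list had a median log2 change of -0.58, against -0.12 over all genes, of which 0.63% fell and 1.19% rose. Without the 2 arrays of highest 18S signal 5 fell and 1 rose. Zfp42, the stem cell marker also called Rex1, stood at 0.291, 0.359 and 0.196 in RA against 1.03, 1.09 and 0.871 in vehicle (-1.69, adjusted p = 0.00797). Tdgf1, the coreceptor Cripto, stood at 0.162, 0.173 and 0.107 against 1.28, 1.11 and 0.612 (-2.37, adjusted p = 0.00816). Tcl1, an AKT coactivator of stem cells, stood at 0.292, 0.306 and 0.332 against 0.794, 1.17 and 1.04 (-1.53, adjusted p = 0.00816). These 3 falls held throughout, and their RA arrays were all under the lowest vehicle array.

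Other members were less even. Utf1, a chromatin factor of stem cells, was at 0.180, 0.255 and 0.375 in RA (-1.74, adjusted p = 0.0203), and its call ended without vehicle replicate 2, RA replicate 1 or RA replicate 2 (up to 0.0907). Foxd3, a forkhead repressor needed by early epiblast, was at 0.416, 0.163 and 0.130 (-1.99, adjusted p = 0.0283). Its call held only without vehicle replicate 3, RA replicate 1, or TSA replicate 1 or 2 (up to 0.118). Nr5a2, a nuclear receptor that binds the Pou5f1 promoter, changed by -0.82 and -1.25 on its 2 probe sets. Its gene-level call (-1.03, adjusted p = 0.0335) held only without vehicle replicate 1 (up to 0.137). Alpl, the tissue-nonspecific alkaline phosphatase long used to stain embryonal carcinoma cells, went the other way. It stood at 2.80, 3.01 and 3.91 in RA against 0.792, 1.00 and 1.20, and its call held throughout (1.65, adjusted p = 0.00816).

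The core factors did not pass. Sox2 stood at 0.622, 0.575 and 0.648 in RA against 1.10, 1.12 and 0.785, so its arrays did not overlap, with a log2 change of -0.64 (95% interval -1.07 to -0.22, adjusted p = 0.138). Nanog changed by -0.66 (-1.13 to -0.18, adjusted p = 0.189) and Pou5f1, the gene of Oct4, by -0.92 (-1.61 to -0.22, adjusted p = 0.211). All 3 intervals lie below 0, but none of these genes reached the threshold over all genes. In a bulk sample fewer cells that express a gene and less RNA per cell cannot be told apart.

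**Figure D3:**
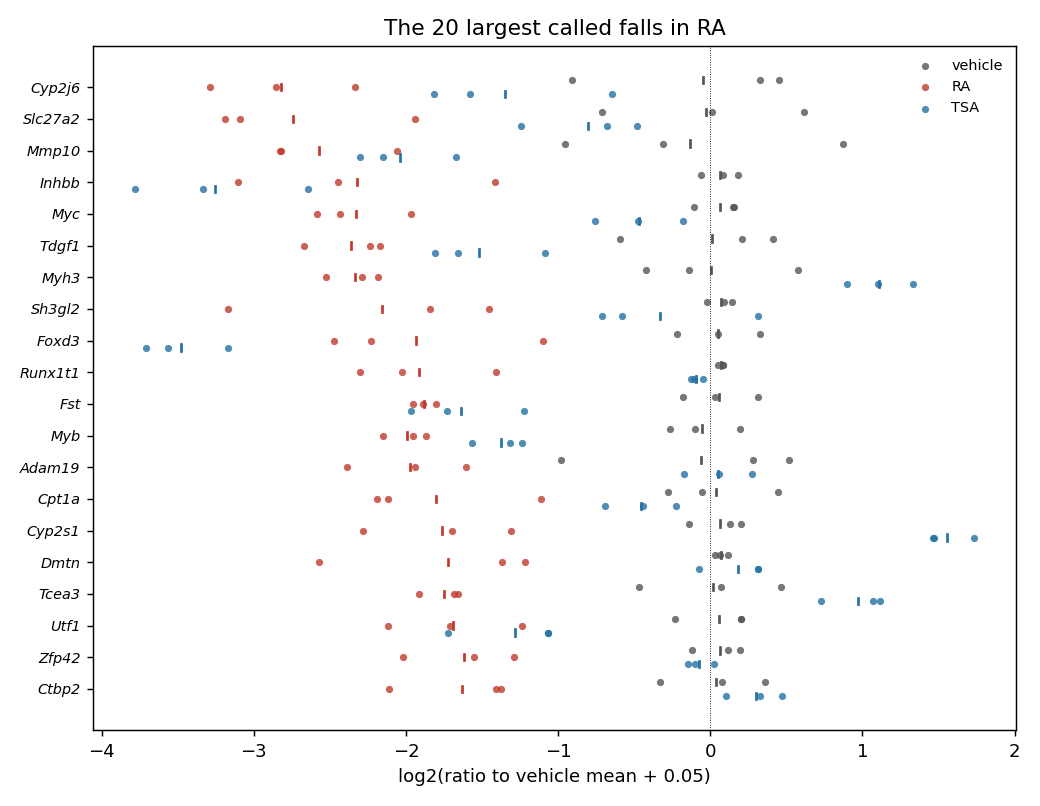
Points give log2(ratio + 0.05) on each vehicle, RA and TSA array for the 20 largest called falls, averaged over a gene's probe sets, and bars give group means. The RA arrays of Myc, Tdgf1 and Fst lie close together, those of Inhbb and Sh3gl2 are spread, and for Myh3, Cyp2s1 and Tcea3 the TSA arrays lie above the vehicle arrays.

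Of 24 genes listed for endoderm 4 rose and none fell, Foxa1, Foxq1, Gata6 and Sox7. The same numbers passed without the 2 arrays of highest 18S signal. Most of the 24 are transcription factors, but the adaptor Dab2, Cer1 and Pth1r are counted among them. The median of the 24 was 0.12, against -0.12 over all genes, of which 1.19% rose and 0.63% fell. Gata6, which starts the primitive endoderm program, had 3 probe sets that disagreed. The probe set 104698_at stood at 15.4, 15.4 and 11.2 in RA against 0.749 to 1.18 in vehicle (3.75, adjusted p = 0.00062), while the others changed by 1.65 (adjusted p = 0.101) and 0.38 (adjusted p = 0.817). The gene-level call (1.93, adjusted p = 0.0204) ended without vehicle replicate 1 or 2 or RA replicate 1 or 2 (up to 0.0946). Sox7, a Sox factor of primitive endoderm, was at 2.41, 2.55 and 2.09 against 0.865, 0.856 and 1.28 (1.21, adjusted p = 0.0276), and its call held only without vehicle replicate 3 or TSA replicate 2 (up to 0.12). Gata4 (0.12, 95% interval -0.65 to 0.89), Sox17 (0.11, -0.48 to 0.70) and Foxa2 (0.25, -0.25 to 0.75) had arrays that overlapped the vehicle arrays, with adjusted p from 0.686 to 0.92. The signs of Gata4 and Sox17 turned under some settings, so no direction is given for them.

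Genes listed for basement membrane and parietal endoderm showed rises of very different certainty. Of the called genes only Lama1 is a basement membrane chain. Of 29 measured 3 rose and none fell, against 1.19% and 0.63% of all genes. The list median was a log2 change of 0.07, against -0.12 over all genes. Srgn, the proteoglycan serglycin of secretory granules, stood at 12.9, 11.8 and 10.9 in RA against 0.678, 0.925 and 1.40 (3.56, SE 0.32, adjusted p = 0.00113), and its call held throughout. Plat, the tissue plasminogen activator that F9 cells secrete on differentiation, stood at 6.65, 4.40 and 5.71 against 0.829, 0.501 and 1.67 (2.56, adjusted p = 0.0321). Lama1, the laminin alpha chain of early basement membranes, stood at 2.30, 1.78 and 2.68 against 0.864, 0.925 and 1.21 (1.13, adjusted p = 0.0472). The call of Plat held only without vehicle replicate 3, TSA replicate 1 or TSA replicate 2 (up to 0.119), and that of Lama1 only without vehicle replicate 3 (up to 0.172).

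None of 5 measured chains of collagen IV passed the test. Col4a1 stood at 3.39, 2.60 and 2.09 in RA against 1.00, 0.565 and 1.43 (1.45, adjusted p = 0.0684). Col4a2, its partner chain, stood at 1.96, 2.14 and 2.00 against 0.755, 0.601 and 1.64 (1.12, adjusted p = 0.138). In both the RA arrays lay above the vehicle arrays. Col4a3 (-0.62, adjusted p = 0.486), Col4a4 (0.43, adjusted p = 0.81) and Col4a5 (-0.48, adjusted p = 0.845) had changes of either sign. Vehicle replicate 3, the array of highest 18S signal, was the highest vehicle array for Col4a1 and Col4a2. Without it and RA replicate 3 these 2 chains passed (adjusted p = 0.0447 and 0.0272), whereas Lama1 (0.0841) and Plat (0.051) did not. Of the other laminin chains Lamb1 changed by -0.33 (95% interval -0.85 to 0.19) and Lamc1 by -0.28 (-0.67 to 0.10), and the 2 probe sets of Lamc1 differed in sign, at -0.81 and 0.25. Thbd, an endothelial and parietal endoderm receptor for thrombin, changed by -0.84 with a wide interval of -2.32 to 0.63. Serpinh1, the collagen chaperone Hsp47, rose to 2.38, 2.51 and 2.11 against 0.878 to 1.12 (1.18, adjusted p = 0.0178), and its call ended without vehicle replicate 2 or RA replicate 1 or 2 (up to 0.0872). It was the only called gene of 11 collagen folding and modifying enzymes, where 1.82% of all genes were called.

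**Figure D4:**
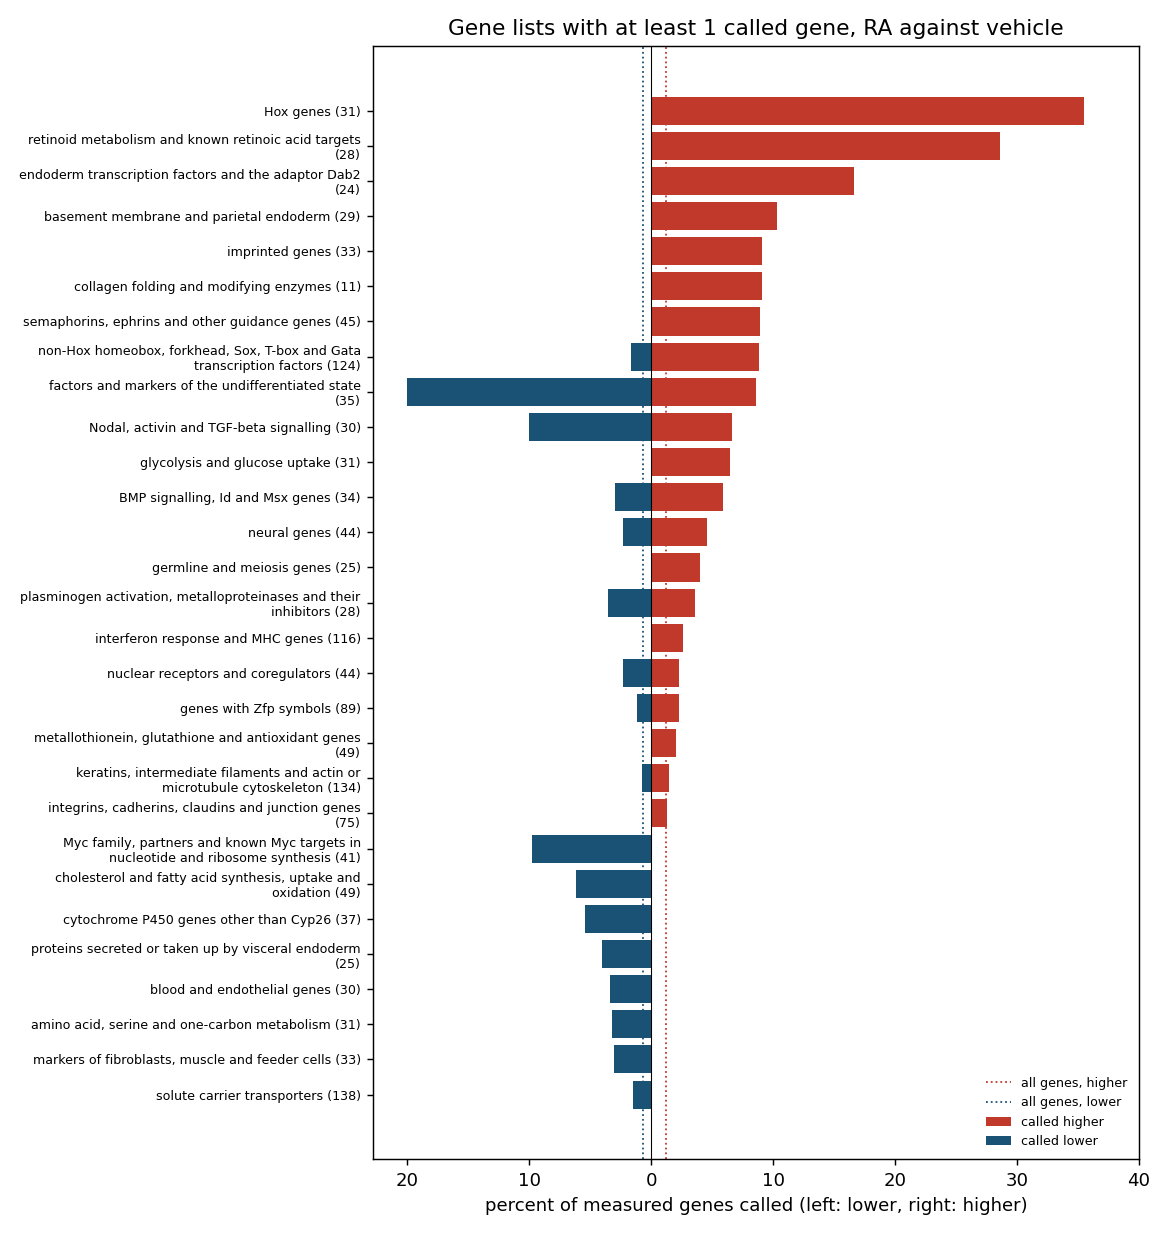
Bars give the percent of the measured genes of each list that were called higher (right) or lower (left) in RA, with the number measured in parentheses, for lists with at least 1 called gene. Dotted lines mark the shares of all genes, 1.19% higher and 0.63% lower; Hox genes and retinoid genes have the longest bars to the right, and genes of the undifferentiated state and of the Myc network 2 of the 3 longest to the left.

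Called genes of Nodal and activin signalling moved both ways. Nodal and activin are TGF-beta family ligands that keep early embryo cells in their state; Tdgf1 is the coreceptor of Nodal, Lefty1 blocks Nodal, Fst binds and blocks activin, and Inhbb encodes an activin subunit. Of 30 measured genes 3 fell (Tdgf1, Inhbb and Fst) and 2 rose (Lefty1 and Ski), with a median of -0.02. All genes had a median of -0.12, with 0.63% lower and 1.19% higher. Without the 2 arrays of highest 18S signal 2 fell and none rose. Fst stood at 0.221, 0.237 and 0.208 in RA against 0.972, 0.834 and 1.19 (-1.94, adjusted p = 0.00496), and its call held throughout. Inhbb stood at 0.133, 0.325 and 0.0665 against 1.01, 1.08 and 0.908 (-2.39, adjusted p = 0.0283). Its RA arrays were spread, and its call held only without RA replicate 2, TSA replicate 1 or TSA replicate 2 (up to 0.112). Lefty1 rose by 1.99 on 1 probe set (4.21, 3.08 and 5.28 against 0.902 to 1.17), and the other probe set changed by 2.12 with scattered vehicle arrays (2.01, 0.690 and 0.303). At the gene level Lefty1 had an adjusted p of 0.0142, and the call ended without vehicle replicate 2, RA replicate 1 or RA replicate 3 (up to 0.0675). Ski, a corepressor of the Smad proteins that carry these signals, stood at 2.56, 2.32 and 1.87 (1.14, adjusted p = 0.0424), and its call held only without vehicle replicate 1 (up to 0.152).

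In the BMP branch of the same family the ligand Bmp4 fell while Msx2 and Smad6 rose. Of 34 measured genes 2 rose and 1 fell, and without the 2 arrays of highest 18S signal 2 rose and none fell. The list median was -0.16, against -0.12 over all genes, of which 1.19% rose and 0.63% fell. Bmp4 changed by -1.28 and -1.55 on its 2 probe sets (gene-level -1.42, adjusted p = 0.011), and its call ended without RA replicate 1 or 2 (up to 0.0519). Smad6, an inhibitor of BMP signals inside the cell, stood at 2.78, 2.65 and 2.82 against 0.754, 0.878 and 1.37 (1.46, adjusted p = 0.0184). Its call ended without vehicle replicate 2 or any RA replicate (up to 0.0834). Tll1, a tolloid-like metalloproteinase that cleaves the BMP antagonist chordin and procollagens, rose to 9.30, 7.43 and 7.06 against 0.566, 1.91 and 0.526 (3.16, adjusted p = 0.0143), and its call ended without RA replicate 1 or 2 (up to 0.0681). Gas1, a membrane protein that binds Hedgehog, was looked at after the values were seen and stood at 3.15, 2.90 and 3.76 against 0.920, 0.913 and 1.17 (1.66, adjusted p = 0.0383). The Gas1 call held only without vehicle replicate 3, TSA replicate 2 or TSA replicate 3 (up to 0.14).

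Of 45 receptors and ligands of cell guidance 4 rose and none fell, against 1.19% of all genes that rose. The median of the 45 was -0.02, and 22 had a change above 0. The count of rises was 3 without the 2 arrays of highest 18S signal. Sema3e, a secreted semaphorin that repels vessels and axons, stood at 16.6, 14.4 and 7.18 in RA against 1.11, 0.840 and 1.05 (3.53, adjusted p = 0.00811). Efnb1, a membrane-bound ephrin, stood at 3.03, 2.39 and 3.21 against 1.12, 0.843 and 1.04 (1.48, adjusted p = 0.00766). Both calls held throughout. Epha2, an ephrin receptor, stood at 2.00, 1.91 and 2.18 (1.00, adjusted p = 0.0427), and Nrp1, a coreceptor of class 3 semaphorins and VEGF, changed by 1.57 and 1.29 on its 2 probe sets (gene-level 1.43, adjusted p = 0.0472). The calls of Epha2 and Nrp1 held only without vehicle replicate 3 (up to 0.158). Ackr3, a scavenger receptor for the chemokine Cxcl12, stood at 14.1, 12.4 and 4.27 against 1.43, 0.598 and 0.975 (3.20, adjusted p = 0.0202), with RA replicate 3 apart from the others. The Ackr3 call ended without vehicle replicate 2, RA replicate 1 or RA replicate 2 (up to 0.0923). No gene passed limma's adjusted test in 3 further signalling lists. They were 42 Wnt genes (7 at an unadjusted p under 0.05), 46 genes of FGF and other receptor tyrosine kinases (12, and 1 called without the 2 arrays of highest 18S signal) and 25 Notch and Hedgehog genes (2).

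Cell shape and adhesion genes were called at about the share of all genes (1.82%). Of 134 genes of keratins, intermediate filaments and the actin or microtubule cytoskeleton 2 rose (Prph and Anxa5) and 1 fell (Myh3), and of 75 integrins, cadherins, claudins and junction genes 1 rose (Dsc2). With the 2 arrays of highest 18S signal left out, 2 of the cytoskeleton list were higher and 2 lower, and of the adhesion list none was higher and 1 lower. Dsc2, a desmosomal cadherin, changed by 3.43 on 1 probe set (8.47, 12.5 and 9.16 in RA against 1.72, 0.802 and 0.474) and by 2.89 on the other (adjusted p = 0.0818). The gene-level call held throughout (3.16, adjusted p = 0.00907). Prph, the neuronal intermediate filament peripherin, changed by 4.27 and 2.41 on its 2 probe sets, both called, and the first stood at 18.8, 21.2 and 19.6 against 0.848, 0.901 and 1.25. Its gene-level change was 3.34 (adjusted p = 0.00168) and held throughout. Tgfb1i1, the focal adhesion protein Hic-5, had nearly identical RA arrays of 5.82, 5.52 and 5.64 against 1.29, 0.779 and 0.932 (2.47, SE 0.21, adjusted p = 0.000887), and held throughout. Anxa5, annexin A5, stood at 2.74, 2.11 and 2.43 (1.24, adjusted p = 0.0162), and its call ended without vehicle replicate 2, RA replicate 1 or RA replicate 3 (up to 0.0794). Krt8 (0.68, 95% interval 0.04 to 1.31) and Krt18 (0.66, -0.34 to 1.66), keratins of simple epithelium and of F9 endoderm, did not pass (adjusted p = 0.321 and 0.567).

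Some called genes outside that list also act on actin. Most of those described here were picked after their values were seen, so how many were higher or lower is no result. Baiap2l1, which bundles actin under the membrane, stood at 4.67, 6.03 and 4.25 against 1.37, 0.602 and 1.03 (2.32, adjusted p = 0.0122), and its call ended without RA replicate 1 or 2 (up to 0.0633). Cotl1, Amot, Fhdc1, Rhob and Fhod3 were picked after the values were seen. Cotl1, a coactosin-like actin binder, stood at 4.85, 3.58 and 4.55 (2.08, adjusted p = 0.00816). Amot, angiomotin of cell junctions, stood at 3.87, 4.57 and 4.16 (2.06, adjusted p = 0.00542). The formin Fhdc1 stood at 3.18, 5.18 and 4.30 (2.01, adjusted p = 0.00413), and these 3 held throughout. The small GTPase gene Rhob was at 4.11, 2.64 and 2.58 (1.57, adjusted p = 0.0204) and lost its call without vehicle replicate 2 or RA replicate 1 or 2 (up to 0.0936). The formin Fhod3 was at 2.13, 1.96 and 1.96 (0.98, adjusted p = 0.0204) and lost its call without vehicle replicate 2 or any RA replicate (up to 0.105). Dmtn, the actin bundler dematin, fell to 0.380, 0.336 and 0.118 against 0.972 to 1.03 (-1.79, adjusted p = 0.0348), held only without RA replicate 3 (up to 0.116). Csrp2, a LIM protein of the actin cytoskeleton also picked after its values were seen, fell to 0.391, 0.336 and 0.380 (-1.33, adjusted p = 0.00696) and held throughout.

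Of 49 genes of cholesterol and fatty acid synthesis, uptake and oxidation 3 fell (Slc27a2, Cpt1a and Idi1) and none rose. The list median was -0.10, against -0.12 over all genes, of which 0.63% fell and 1.19% rose. Without the 2 arrays of highest 18S signal 2 of the list fell. Slc27a2, an acyl-CoA synthetase that takes up and activates very long chain fatty acids, stood at 0.0596, 0.211 and 0.0672 in RA against 1.48, 0.957 and 0.561 in vehicle (-2.71, adjusted p = 0.0178). Cpt1a, which passes fatty acids to mitochondria for oxidation, stood at 0.181, 0.169 and 0.413 against 0.912, 1.31 and 0.774 (-1.84, adjusted p = 0.027). Idi1, an isomerase of cholesterol synthesis, showed a small and even fall to 0.540, 0.506 and 0.566 (-0.83, adjusted p = 0.0424). The Slc27a2 call ended without vehicle replicate 2, RA replicate 1 or RA replicate 3 (up to 0.0771). That of Cpt1a held only without vehicle replicate 3, RA replicate 3, or TSA replicate 1 or 2 (up to 0.112), and that of Idi1 only without vehicle replicate 3 (up to 0.156). Among 37 P450 genes other than the Cyp26 family 2 fell, Cyp2j6 and Cyp2s1, with a median of -0.42. Cyp2j6, related to epoxygenases of fatty acids, stood at 0.149, 0.0525 and 0.0882 against 1.20, 1.32 and 0.481 (-2.78, adjusted p = 0.0185) and lost its call without vehicle replicate 1 or 2 or RA replicate 2 or 3 (up to 0.0893). Cyp2s1, an extrahepatic P450 that can use retinoids, stood at 0.258, 0.156 and 0.354 against 1.04, 0.856 and 1.10 (-1.82, adjusted p = 0.011) and held throughout.

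Genes of both fructose-1,6-bisphosphatases, which drive gluconeogenesis against glycolysis, were the only called genes among 31 of glycolysis and glucose handling. For this and the following lists, the shares over all genes were 1.19% higher and 0.63% lower. Fbp2, the muscle form, stood at 5.38, 5.32 and 3.72 in RA against 0.762, 1.07 and 1.16 (2.21, adjusted p = 0.00249) and held throughout. Fbp1, the liver form, stood at 10.5, 6.45 and 2.47 against 0.976, 0.782 and 1.24 (2.43, adjusted p = 0.0356). RA replicate 3 was far below the others for Fbp1, and the call held only without it (up to 0.141). Without the 2 arrays of highest 18S signal 2 glycolysis genes rose and 2 fell. Ddc, the aromatic amino acid decarboxylase and an imprinted gene, stood at 3.38, 2.93 and 2.91 against 1.02, 0.941 and 1.03 (1.57, adjusted p = 0.00473) and held throughout. The imprinted genes Sgce (1.31, adjusted p = 0.0178) and Plagl1 (1.85, adjusted p = 0.0192) also rose, 3 of 33 in all with none lower, or 1 higher and 2 lower without the 2 arrays of highest 18S signal. The Sgce call ended without vehicle replicate 2 or RA replicate 1 or 3 (up to 0.0797), and that of Plagl1 without vehicle replicate 1 or RA replicate 1 or 2 (up to 0.0907). Among 138 solute carriers Slc27a2 and Slc20a1 fell and none rose, so the list was called at about the share of all genes (1.82%). Slc20a1, a phosphate transporter, stood at 0.358, 0.399 and 0.376 against 1.12, 0.891 and 0.988 (-1.29, adjusted p = 0.00968) and lost its call only without RA replicate 1 (0.0511). Of 49 metallothionein, glutathione and antioxidant genes only Gpx3 rose (0.86, adjusted p = 0.042), a call that held in none of the fits without 1 array (up to 0.155).

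Of all falls that of Myc had the smallest p. Myc, the transcription factor that drives ribosome and nucleotide synthesis, stood at 0.206, 0.116 and 0.135 in RA against 1.06, 1.06 and 0.878 in vehicle (-2.39, SE 0.23, adjusted p = 0.00168), and its call held throughout. Of 41 genes of the Myc family, its partners and its known targets 4 fell (Myc, Nop2, Nop58 and Srm) and none rose. The median of the 41 was -0.40 against -0.12 over all genes, of which 0.63% fell and 1.19% rose. Nop2, a nucleolar RNA methyltransferase, stood at 0.519, 0.459 and 0.445 against 1.04, 0.962 and 1.00 (-1.0, adjusted p = 0.0192). Nop58, a core protein of box C/D particles, stood at 0.402, 0.485 and 0.389 (-1.12, adjusted p = 0.0441), and Srm, spermidine synthase, at 0.488, 0.462 and 0.409 (-1.06, adjusted p = 0.0449). The Nop2 call ended without vehicle replicate 2 or any RA replicate (up to 0.0907). That of Nop58 held only without vehicle replicate 3 (up to 0.149) and that of Srm only without vehicle replicate 3 or TSA replicate 2 (up to 0.147). Without the 2 arrays of highest 18S signal only 1 gene of the list fell. Odc1 (-0.89, adjusted p = 0.0704), the polyamine enzyme, and Max (-0.79, adjusted p = 0.0921), the partner of Myc, did not pass.

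Ddx21, Rrp12 and Nifk were picked for their falls after the values were seen, so their shared direction is no result. Ddx21, a helicase of ribosomal RNA transcription, stood at 0.574, 0.461 and 0.413 against 1.00, 1.03 and 0.969 (-0.99, adjusted p = 0.0402). Rrp12, a ribosome export factor, stood at 0.482, 0.431 and 0.489 (-1.01, adjusted p = 0.0249), and Nifk, a binder of the proliferation antigen Ki-67, at 0.433, 0.335 and 0.341 (-1.29, adjusted p = 0.0294). The calls of Rrp12 and Nifk held only without vehicle replicate 3 (up to 0.12), and that of Ddx21 in none of the fits without 1 array (up to 0.15). Myb, a transcription factor of progenitor cells, changed by -3.25 on the probe set 92644_s_at (0.0691, 0.0393 and 0.0396 in RA against 1.38, 1.21 and 0.410) and by -0.61 on 162411_f_at (adjusted p = 0.49). Its gene-level call (-1.93, adjusted p = 0.00191) held throughout. Its relative Mybl1 fell to 0.312, 0.335 and 0.250 (-1.56, adjusted p = 0.0154), with a call that ended without vehicle replicate 2 or any RA replicate (up to 0.0636).

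The hexamer CACGTG, to which Myc and Max bind as a pair, was counted in the promoter windows after the fall of Myc was seen. It reads the same on both strands. It stood in 753 of 6576 windows (11.5%), in 9 of 40 windows of called falls (22.5%), in 5 of 66 of called rises (7.58%) and in 11 of 37 of the Myc list (29.7%). These shares are descriptions, and other factors bind the same letters. The windows of 3 genes that fell are shown because they hold the hexamer at different distances from the start, at positions -60 to -55 in Nop2, -22 to -17 in Slc20a1 (which holds another copy at -175 to -170, not shown) and -217 to -212 in Foxd3. They lie at chr6:125131763-125131882, chr2:129198691-129198772 and chr4:99656049-99656147 of GRCm38.p6, all on the plus strand, with the hexamer in capitals.
Nop2: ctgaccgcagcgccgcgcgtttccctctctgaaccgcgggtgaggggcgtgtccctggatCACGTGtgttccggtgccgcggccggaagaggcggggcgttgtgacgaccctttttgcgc
Slc20a1: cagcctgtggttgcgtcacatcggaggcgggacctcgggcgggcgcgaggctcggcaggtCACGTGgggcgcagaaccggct
Foxd3: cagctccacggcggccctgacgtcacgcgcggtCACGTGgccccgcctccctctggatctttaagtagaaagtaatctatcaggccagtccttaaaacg

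Broader growth lists had low medians without calls by limma's adjusted test. The median log2 change was -0.32 for 71 translation factors and tRNA synthetases (10 at an unadjusted p under 0.05), -0.28 for 35 ribosomal proteins (3), -0.25 for 79 genes of oxidative phosphorylation (8) and -0.24 for 44 proteasome subunits (5). For 57 genes of the cell cycle and DNA replication it was -0.21 (9). All of these were below the median of -0.12 over all genes, but 17 housekeeping genes were as low, at -0.31 (2). Cyclin-dependent kinase inhibitors, which stop the cycle in differentiating cells, had a median of 0.10 over 8 genes, with 0 at an unadjusted p under 0.05. Cdkn1a changed by -0.33 (95% interval -1.15 to 0.50), Cdkn1b by 0.14 (-0.42 to 0.70) and Ccnd1, cyclin D1, by -0.62 (-1.14 to -0.09), with adjusted p from 0.273 to 0.863. No gene passed among 82 chromatin regulators (14 at an unadjusted p under 0.05, and 1 called without the 2 arrays of highest 18S signal), 77 chaperones (9) or 39 regulators of apoptosis and p53 targets (7).

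**Figure D5:**
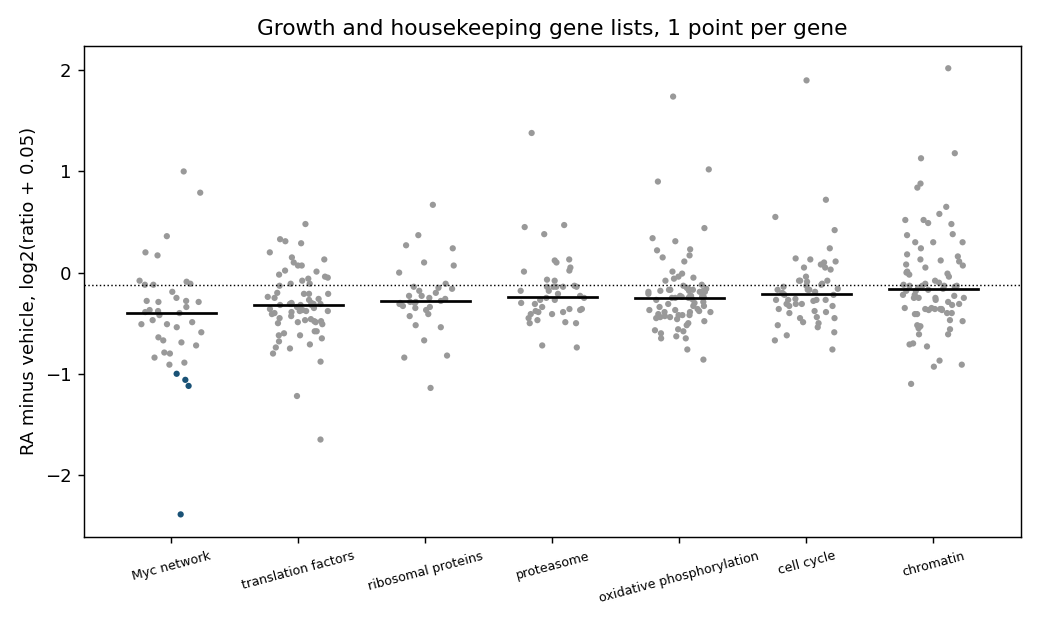
Each point is a gene of 1 of 7 growth and housekeeping lists, with its RA minus vehicle difference in log2(ratio + 0.05) on the y axis; horizontal bars are list medians, the dotted line is the median of all genes (-0.12) and blue points were called. Only the Myc list holds called genes, 4 of 41, with Myc at -2.39 far below its other members.

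Several of the largest rises belonged to none of these groups. Calcoco2, an autophagy receptor, stood at 26.5, 35.1 and 20.4 in RA against 1.77, 0.558 and 0.674 (log2 change 4.85, adjusted p = 0.00147). Crygc, a lens crystallin, stood at 27.8, 14.4 and 11.9 against 0.740, 1.10 and 1.17 (4.03, adjusted p = 0.000887). Spsb1, which guides a ubiquitin ligase to its substrates, rose on both probe sets, by 3.07 and 3.75, and Ptpre, a receptor tyrosine phosphatase, stood at 7.98, 9.22 and 5.21 (2.91, adjusted p = 0.0064). These 4 calls held throughout. Cidea, a lipid droplet protein, stood at 6.47, 5.68 and 7.09 against 1.26, 1.24 and 0.496 (2.72, adjusted p = 0.0122), and its call ended without RA replicate 1 or 2 (up to 0.0561). Csn3, the milk protein kappa-casein, stood at 7.22, 5.61 and 5.13 against 0.778, 1.48 and 0.741 (2.58, adjusted p = 0.0203) and lost its call without vehicle replicate 1 or any RA replicate (up to 0.0887). Folr1, the folate receptor, rose on both probe sets, by 2.19 and 1.54, and Cpe, a carboxypeptidase of prohormones, by 2.14 and 1.83. Folr1 and Cpe were picked after their values were seen, and both calls held throughout. Of 116 genes listed for interferon response and antigen presentation H2-Q5, H2-Bl and the chemokine receptor Ackr3 rose and none fell. Of all genes 1.19% rose. Without the 2 arrays of highest 18S signal 1 of the list rose. H2-Q5 (2.28, adjusted p = 0.0348) and H2-Bl (0.94, adjusted p = 0.0439) are class I genes of a family of near copies, so their probes may not tell them apart. The H2-Q5 call held only without vehicle replicate 1 (up to 0.124) and that of H2-Bl in none of the fits without 1 array (up to 0.153).

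Several of the largest falls were of genes with other roles. Mmp10, the metalloproteinase stromelysin-2, stood at 0.0914, 0.0905 and 0.190 against 0.467, 0.755 and 1.78 (-2.44, adjusted p = 0.0311) and held only without vehicle replicate 1 or 3 or RA replicate 3 (up to 0.127). Myh3, the embryonic myosin heavy chain, stood at 0.154, 0.123 and 0.170 against 0.697, 0.859 and 1.44 (-2.34, adjusted p = 0.00469) and held throughout. Sh3gl2, the endocytic protein endophilin A1, stood at 0.229, 0.0611 and 0.314 (-2.22, adjusted p = 0.0427) and held only without RA replicate 3 or TSA replicate 1 (up to 0.143). Tcea3, a transcription elongation factor, stood at 0.268, 0.261 and 0.216 against 1.33, 0.999 and 0.672 (-1.77, adjusted p = 0.0119) and lost its call without vehicle replicate 2 or RA replicate 2 (up to 0.0566). Adam19, a membrane metalloproteinase, stood at 0.211, 0.278 and 0.141 (-1.91, adjusted p = 0.0481) and held only without vehicle replicate 3 (up to 0.171). Of 44 neural genes Prph and Syt1 rose and Sh3gl2 fell, against 1.19% of all genes higher and 0.63% lower. Syt1, the calcium sensor of synaptic vesicles, stood at 3.13, 2.82 and 2.72 (1.51, adjusted p = 0.0207) and lost its call without vehicle replicate 2 or any RA replicate (up to 0.0911).

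Further called genes, all picked after their values were seen, included 4 rises and 2 falls. Cmbl, a hydrolase related to carboxymethylenebutenolidase, stood at 3.50, 4.66 and 5.68 in RA against 1.15, 0.823 and 1.02 (2.14, adjusted p = 0.00496). Nxn, the thioredoxin relative nucleoredoxin, stood at 3.79, 3.53 and 4.97 against 0.996, 0.718 and 1.29 (2.0, adjusted p = 0.00816). Retreg1, a receptor for autophagy of the endoplasmic reticulum, stood at 3.05, 3.59 and 5.33 against 0.735, 1.21 and 1.05 (1.93, adjusted p = 0.00968). The noncoding gene Abhd11os stood at 4.14, 3.70 and 3.43 against 0.897 to 1.06 (1.86, adjusted p = 0.00262). These 4 rises held throughout. Among falls Ndrg1, a gene of growth arrest and hypoxia, changed by -1.30 and -1.45 on its 2 probe sets, both called (gene-level adjusted p = 0.0122), and lost its call without RA replicate 1 or 2 (up to 0.0607). Lgals3, the lectin galectin-3, stood at 0.361, 0.304 and 0.352 against 1.42, 0.911 and 0.665 (-1.37, adjusted p = 0.0387), held only without vehicle replicate 3 (up to 0.15). The remaining called genes are given by the counts above.

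TSA gave a second treatment of the same cells. It shares the vehicle arrays with RA, so the test of interest is RA directly against TSA, in which 412 of 8251 genes (4.99%) were called. Of the 150 genes called in RA against vehicle only 70 were called here. They were 45 rises that stood above TSA, 24 falls that stood below it and 1 fall that stood above it. The rest did not pass, among them the treatment check Crabp2 (1.28, adjusted p = 0.0767). Foxa1 was higher in RA by a log2 difference of 5.42 (adjusted p = 0.00165), Foxq1 by 4.70 (adjusted p = 0.000139), Zfp703 by 4.14 (adjusted p = 0.00036), Srgn by 4.10 (adjusted p = 0.00036) and Crygc by 4.08 (adjusted p = 0.000468). In these 5 genes no TSA array exceeded 1.43. Gata6 and Sox7 were higher in RA by 2.62 (adjusted p = 0.00327) and 2.08 (adjusted p = 0.00165). Myc was lower in RA by -1.86 (adjusted p = 0.00346), Zfp42 by -1.55 (adjusted p = 0.0057) and Runx1t1 by -1.82 (adjusted p = 0.00351). All 10 differences passed whichever array was left out. For Msx2 the difference was -0.02 (95% interval -1.12 to 1.08), for Cdx1 -0.06 (-0.93 to 0.81), for Fst -0.24 (-0.77 to 0.29) and for Lama1 0.02 (-0.49 to 0.54), with adjusted p from 0.653 to 0.992. These intervals include 0 but allow differences of up to about 1 on the log2 scale, so they do not show equal responses.

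Some genes stood on opposite sides of vehicle. Cyp2s1 was at 2.71, 3.27 and 2.72 in TSA (log2 change 1.49, adjusted p = 0.0167) and at -1.82 in RA, a direct difference of -3.32 (adjusted p = 0.00036). Lefty1 was at 0.207, 0.213 and 0.262 in TSA on the probe set 102345_at that stood at 3.08 to 5.28 in RA, with a gene-level difference of 3.76 (adjusted p = 0.000439). Myh3 was at 2.10, 2.47 and 1.81 in TSA and differed by -3.45 (adjusted p = 0.000372), and Tcea3 was at 2.11, 1.61 and 2.05 and differed by -2.72 (adjusted p = 0.000906). The TSA changes of Myh3 (1.10, adjusted p = 0.0581) and Tcea3 (0.95, adjusted p = 0.0708) against vehicle did not pass by themselves. The 4 direct differences passed whichever array was left out. Foxd3 was lower still in TSA, and higher in RA than in TSA by 1.55 (adjusted p = 0.043), a call that held only without vehicle replicate 3 or RA replicate 3 (up to 0.156).

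Markers of cell types were counted beside these results, in which 1.19% of all genes rose and 0.63% fell. Of 8 embryonal carcinoma markers 3 fell and 1 rose, with list means per array from -0.06 to 0.11 in vehicle and from -0.94 to -0.81 in RA. Of 5 primitive endoderm markers 2 rose, Gata6 and Sox7 (list means -0.33 to 0.36 in vehicle, 0.64 to 0.76 in RA). Of 8 parietal endoderm markers 2 rose, Plat and Lama1 (-0.34 to 0.31, then 0.53 to 0.63). The median log2 change was 0.12 for the primitive and 0.52 for the parietal list, so the list means do not describe every member. No marker passed among 6 of visceral endoderm, 7 of fibroblasts or feeder cells, 4 of trophoblast and 3 of blood, and of 5 neural markers Syt1 rose. The list means of fibroblast markers ran from -0.97 to 0.56 in vehicle and from -0.44 to 0.10 in RA, so the vehicle arrays spanned the RA arrays. The ratios cannot show whether any marker was near 0 in vehicle, and the part of other cell types in the results was not tested. Of the control gene Actb both probe sets were high on the arrays of high 18S signal, at 1.88 and 1.83 on vehicle replicate 3 and 1.19 and 1.22 on RA replicate 3, against 0.134 to 0.661 on the other vehicle and RA arrays. Its change was -0.87 (95% interval -2.38 to 0.64, adjusted p = 0.624).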

How the data were processed

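RNA of F9 cells was hybridised to Affymetrix arrays, and per the labels the vehicle data were then entered into GeneSpring; how they were summarised and scaled is not given in the sources used here. The authors' deposited values are linear ratios, and in the file the vehicle arrays of each probe set average 1, so brightness is not recoverable and a large ratio may rest on a dim vehicle signal. Array medians differed by at most 1.24 times, so ratios were used as deposited. No array was dropped.

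The 66 control probe sets were left out. Of 12422 others 10833 had 1 gene symbol, 396 several and 1193 none; symbols were updated through Entrez IDs with RefSeq (GRCm38.p6), where 16 IDs were missing. A gene's value is the mean log2 over its probe sets (2073 genes had several). All comparisons came from a single limma model (version 3.58.1, R 4.3.3) of the 9 arrays, with 6 residual degrees of freedom and no variance trend. The pseudocount of 0.05 makes fold changes of low values too small. The procedure was tested on simulated data, and precision is limited by the number of arrays.

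Members, the 43 gene lists and the alternatives were chosen with earlier results of these data known. Genes named were the 20 largest rises and 20 largest falls among called genes outside the retinoid and Hox lists, up to 6 called members of each other list, and fixed treatment checks and markers (Gapdh had no probe set of its own). Others are said to be picked after their values were seen. The other called retinoid and Hox genes are given mainly as counts. Deviations of same-numbered vehicle and RA arrays correlated with r of 0.249, -0.0174 and 0.289. Those of vehicle and RA arrays with unlike numbers ran from -0.3 to 0.105. Whether the numbers pair the samples was not tested. The main fit left them out, and a replicate block is given as an alternative.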

Additional observations from a re-analysis of the deposited data

How the results depend on the processing

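None of the genes called in RA against vehicle changed direction under the alternatives, which tested all 150 except the filter on the lowest 30%, which tested 103. In all 150 the RA arrays did not overlap the vehicle arrays, so leaving out or weighting arrays could not turn a direction. The variance trend, the fit of 6 arrays and the replicate block leave the differences of group means unchanged, so they could not either. Called probe sets numbered 87 with quantile normalisation (74 higher, 13 lower), 61 in the fit of the 6 arrays compared, 111 with a variance trend, 98 without both arrays of highest 18S signal and 2196 with array weights; leaving out 1 array gave 54 to 209 against 169. Called genes numbered 76, 63 and 1313 with quantile normalisation, 6 arrays and array weights, and 54 to 222 without 1 array (222 without vehicle replicate 3, as 111 higher and 111 lower) against 150. For RA against TSA the counts were 158 with quantile normalisation, 739 with array weights and 155 to 545 without 1 array, against 412. The estimation of array weights did not converge and gave vehicle replicate 2 a weight of 21.4, so those counts are of little use. With the variance trend 85 genes were higher and 27 lower. The filter on the lowest 30% by mean ratio takes out genes that fell, by its construction. Uncalled genes that turned sign were Gata4, at -0.13 with array weights and from -0.27 to 0.35 without 1 array, Sox17, at -0.05 with array weights, -0.06 without both arrays of highest 18S signal and from -0.13 to 0.40 without 1 array, and Lamc1, at 0.25 with the filter, which removed its other probe set. Causes were not tested. The replicate block gave 148 genes (98 higher, 50 lower), with 34 of the 150 calls lost; the block gave 141 probe sets and 439 genes for RA against TSA.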

Other observations

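Pairs of called genes that lie side by side on a chromosome in the RefSeq order moved together in some places and apart in others. Fbp2 and Fbp1 (log2 changes 2.21 and 2.43), Prrx2 and Ptges, the prostaglandin E synthase (1.19 and 1.30), and Tll1 and Cpe (3.16 and 1.98) had 0 coding genes between them, and both members rose. Calcoco2 (4.85) stood 2 coding genes from Hoxb9 (3.63), at the end of the Hoxb cluster. Srgn (3.56) and Ddx21 (-0.99), with 1 coding gene between them, and Rhob (1.57) and the proteoglycan gene Sdc1 (-1.16), with 2, went in opposite directions. These pairs were picked after their values were seen, and whether neighbours move together more often than other genes was not tested.

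Probe sets of a gene disagreed beyond those described. Of Septin4 94079_at changed by 2.24 and 161234_f_at by -0.31, and of Sdc1 96033_at changed by -2.04 and 161370_f_at by -0.29. Of the 4 probe sets of Hoxa4 97745_at and 97746_f_at both changed by 2.68, whereas 97747_r_at changed by 0.17 and 162402_r_at by -0.37. A gene-level mean understates the first kind of probe set in such genes.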
